A study of Mus musculus with 8 samples.

Results

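Cells that find DNA in their cytosol answer with interferon, and the same cells carry nucleases and other enzymes that remove such nucleic acids. The 9 genes described here encode both sides of that balance, namely the sensor cGAS (Cgas), its adaptor STING (Tmem173), the kinase TBK1 (Tbk1), and the clearance enzymes TREX1, SAMHD1, RNase H2 (Rnaseh2a, Rnaseh2b and Rnaseh2c) and DNase II (Dnase2a). They were chosen by name and function, with earlier results of these data known, and all 9 were found among the 55487 genes of the count table. RNA-seq had been performed on 8 subcutaneous tumors of Lewis lung carcinoma (LLC), a mouse lung cancer line, grown in C57BL/6J mice and taken at day 12. Wild-type LLC cells formed 4 tumors, and Ago2 knock-out (ΔAgo2) LLC cells formed the other 4. The study's methods describe female mice of 6 to 8 weeks, which kept their own Ago2 in all host cells of the tumor, and ΔAgo2 cells derived by lentiviral CRISPR-Cas9 and single-cell sorting, with 1 clone chosen for engraftment. The tumors were profiled to learn how Ago2, the Argonaute that cuts transcripts matching a small RNA, acts in the tumor.

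When cGAS binds double-stranded DNA it makes cyclic GMP-AMP, which binds STING on the endoplasmic reticulum. STING then recruits TBK1, which phosphorylates IRF3, and IRF3 turns on type I interferon and a set of antiviral genes. TREX1 degrades DNA in the cytosol, SAMHD1 breaks down deoxynucleotides, RNase H2 removes ribonucleotides from DNA and cuts RNA paired with DNA, and DNase II digests DNA in lysosomes. Inherited loss of TREX1, SAMHD1 or any RNase H2 subunit causes an interferon disease in humans.

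Antiviral genes downstream of this route commonly carry an interferon-stimulated response element (ISRE), and their promoters are set beside those of the sensor and clearance genes for that reason. The ISRE core, taken as GAAA, any 2 bases and GAAA, was searched on both strands in the 250 bases before each gene's start in RefSeq promoters (GRCm38.p6). These starts can differ from the GENCODE coordinates given further on. The Rnaseh2a window (84966077 to 84966326) lies inside that gene's GENCODE span (84956610 to 84969767), and the Samhd1 window overlaps the Samhd1 span. No ISRE core was found in the 7 of the 9 genes that had a promoter entry, against 6 of 9 IRF3 and interferon outputs and 2.98% of all 32851 promoters. Tmem173 and Rnaseh2b had no entry. A second motif, GAS (TTC, any 3 bases and GAA), matched 1 of the 7, Samhd1, against 1 of 9 outputs and 7.02% of all promoters. The sequences of the sensor, of the kinase, of an RNase H2 subunit and of the antiviral gene Rsad2 follow 5′ to 3′ on the gene's strand, with the match in capitals.
Cgas (chr9:78443238-78443487, minus strand), no match: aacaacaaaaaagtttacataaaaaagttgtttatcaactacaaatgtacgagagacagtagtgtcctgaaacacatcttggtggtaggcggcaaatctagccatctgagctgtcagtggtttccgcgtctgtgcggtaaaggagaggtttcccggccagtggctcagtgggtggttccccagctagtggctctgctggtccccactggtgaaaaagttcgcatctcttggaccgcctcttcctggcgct
Tbk1 (chr10:121586795-121587044, minus strand), no match: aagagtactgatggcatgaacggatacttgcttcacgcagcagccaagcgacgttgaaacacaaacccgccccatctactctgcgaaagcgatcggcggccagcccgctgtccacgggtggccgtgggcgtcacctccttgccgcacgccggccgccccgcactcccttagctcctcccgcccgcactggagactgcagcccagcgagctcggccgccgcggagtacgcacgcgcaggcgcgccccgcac
Rnaseh2a (chr8:84966077-84966326, minus strand), no match: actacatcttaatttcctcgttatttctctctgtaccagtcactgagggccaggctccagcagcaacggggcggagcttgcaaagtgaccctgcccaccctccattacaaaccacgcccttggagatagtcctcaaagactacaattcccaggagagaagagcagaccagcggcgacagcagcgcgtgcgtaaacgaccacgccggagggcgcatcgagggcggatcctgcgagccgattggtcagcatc
Rsad2 (chr12:26456453-26456702, minus strand), ISRE core, here read on the opposite strand, starting 120 bases before the start: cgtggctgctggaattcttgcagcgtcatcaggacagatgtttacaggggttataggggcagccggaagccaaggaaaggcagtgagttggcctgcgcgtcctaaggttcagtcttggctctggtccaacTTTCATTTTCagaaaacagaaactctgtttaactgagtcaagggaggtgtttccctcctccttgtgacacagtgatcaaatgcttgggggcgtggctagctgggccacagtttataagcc
A match is a run of letters and not a measured binding site.

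Library totals ran from 7903288 counts in wild-type tumor 4 to 268564145 in ΔAgo2 tumor 4, so low genes were measured least precisely in wild-type tumor 4. A gene with 0 counts could have stood at up to 0.43 CPM (counts scaled to a common library total, with TMM factors) in the shallowest library and 0.0105 CPM in the deepest, counting error alone considered. The Ago2 transcript was not lower in tumors labelled ΔAgo2 (log2 fold change 0.64, adjusted p = 0.205 by the edgeR quasi-likelihood test), and thus does not check the labels. Of the epithelial markers, Krt8 had at least 2797 counts in every library, whereas the lung lineage markers Nkx2-1 and Sftpc had 0 counts and at most 1 count per library. Summed macrophage markers ran from 1754.2 to 1996.1 CPM in wild-type tumors and from 1256 to 1528.7 CPM in ΔAgo2 tumors 2 to 4, with 3041.6 CPM in ΔAgo2 tumor 1. There the complement genes C1qa, C1qb and C1qc made up 2231.9 CPM, and the other 9 markers summed to 809.7 CPM against 580 to 799.7 CPM in the other tumors. Of the 12 macrophage markers 7 were highest in that tumor, whereas Adgre1, Csf1r, Cd68, Mrc1 and Ccr2 were not. Summed fibroblast markers did not overlap between genotypes (4912.2 to 7252.3 against 2287.3 to 4624.7 CPM). Most of that sum was Col3a1 (3761.6 to 5750.7 against 1407.1 to 3700.8 CPM). Of the 9 fibroblast genes 7 stood lower in ΔAgo2 tumors and 2, Pdgfra and Dcn, higher. Nor did summed proliferation markers overlap (1865.8 to 2163.5 against 2226.5 to 2489 CPM), with 8 of the 12 genes higher and 4 lower. Skeletal muscle markers did not overlap either, at 261.5 to 3675 CPM in wild-type (highest in tumor 3) and 52.6 to 215.3 CPM in ΔAgo2 tumors, and all 10 of the genes were lower at an unadjusted p under 0.05, with 0 called by edgeR, and keratinocyte markers were at 16.8 CPM in wild-type tumor 3 compared with 186.1 to 1018 CPM elsewhere. Summed markers overlapped between wild-type and ΔAgo2 tumors for dendritic cells (19.1 to 23.7 and 12.1 to 22.6 CPM), T and NK cells (10.9 to 27.5 and 18.3 to 54.7), B cells (1.86 to 4.34 and 2.9 to 4.39), neutrophils (24.9 to 61.9 and 40.6 to 66.7), leukocytes as a whole (818.5 to 1199 and 743.5 to 1342.8), endothelium (119.5 to 183.5 and 119.7 to 159.5), red blood cells (54.6 to 203.4 and 39.2 to 148.5) and carcinoma epithelium (501.4 to 1260.6 and 716.7 to 1249.6). All 11 T and NK genes stood higher in ΔAgo2 tumors (52.5% of all genes did), with 2 at an unadjusted p under 0.05 (26.7% of all genes). Of the 8 pan-leukocyte genes 5 stood higher and 3 lower. Among them Ptprc did not overlap, at 13.9 to 33.1 CPM in wild-type and 35.5 to 83.6 CPM in ΔAgo2 tumors (log2 fold change 1.12, adjusted p = 0.0785 by edgeR). Of the 107 marker genes tested over all lists edgeR called 3 (3.49% of all genes tested were called), Fap and Vwf lower and Krt10 higher in ΔAgo2 tumors.

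None of the 8 genes that could be tested passed the test between genotypes. In ΔAgo2 tumors 5 stood higher, as did 52.5% of all genes, and 3 stood lower, with a median log2 fold change of 0.3 against 0.04 over all 16061 genes tested. The edgeR quasi-likelihood test with Benjamini-Hochberg adjustment called 0 of the 8, while it called 3.49% of all genes (1.36% up and 2.12% down). An unadjusted p under 0.05 was found for 3 of the 8 (Cgas, Tbk1 and Rnaseh2b, all higher in ΔAgo2, of which Rnaseh2b alone held with the GC correction), against 26.7% of all genes and 13.7% in that direction. DESeq2 called 0 of the 8 and 13.1% of its genes, and limma voom with sample weights called 1 of the 8 (Tbk1, adjusted p = 0.0185) and 27.9% of all genes. In CPM, genotypes did not overlap for 4 of the 8 genes, 3 higher and 1 lower, against 16.4% of all genes (8.05% higher and 8.36% lower). These are whole tumors, in which fewer cells of a type and less RNA per cell cannot be told apart.

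**Figure D1:**
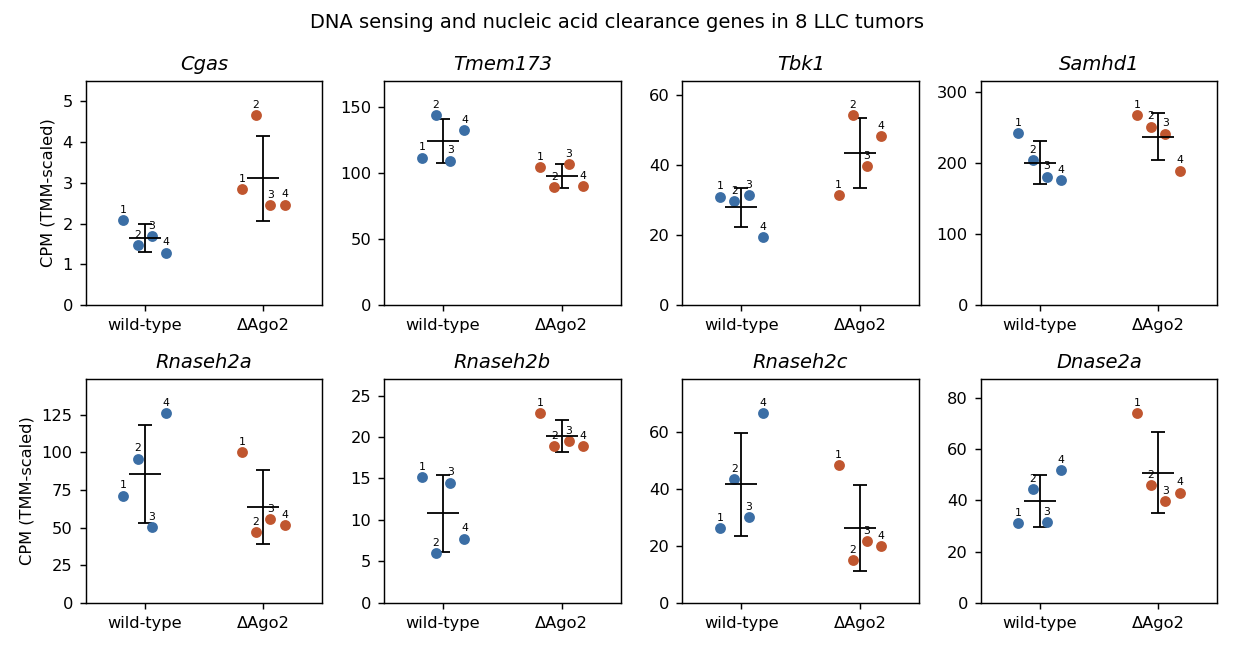
CPM of the 8 tested genes in each tumor (vertical axes start at 0, numbers beside points are tumor numbers, bars show mean ± SD of 4 tumors). Wild-type and ΔAgo2 tumors separate for Cgas, Tmem173, Tbk1 and Rnaseh2b, by a narrow margin for Tbk1 (31.4 against 31.5 CPM), and overlap for the other 4 genes.

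The sensor was the scarcest measured member. Cgas (ENSMUSG00000032344.17, GRCm38 chromosome 9, 78430526 to 78443237) measured 2.08, 1.48, 1.7 and 1.29 CPM across wild-type tumors 1 to 4, and 2.85, 4.66, 2.45 and 2.47 CPM across ΔAgo2 tumors 1 to 4. All ΔAgo2 tumors were above all wild-type tumors, and ΔAgo2 tumor 2 was the highest. The means were 1.64 ± 0.34 and 3.11 ± 1.05 CPM (SD, n = 4 each), a log2 fold change of 0.9 (standard error 0.34, 95% interval 0.16 to 1.65, adjusted p = 0.13 by edgeR). The separation was small relative to counting error, since wild-type tumor 4 rested on 9 counts (exact Poisson 95% interval 0.59 to 2.45 CPM), and the intervals of wild-type tumor 1 (1.71 to 2.5 CPM) and ΔAgo2 tumor 3 (1.95 to 3.04 CPM) overlapped. Without ΔAgo2 tumor 2 the log2 fold change was 0.63 (adjusted p = 0.37 by edgeR).

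The estimate for the adaptor had the opposite sign. Tmem173 (ENSMUSG00000024349.10, chromosome 18, 35733679 to 35740554) measured 111.5, 143.5, 109.2 and 132 CPM across wild-type tumors 1 to 4 and 104.2, 89.3, 106.7 and 89.7 CPM across ΔAgo2 tumors 1 to 4. Each ΔAgo2 tumor lay below each wild-type tumor, the nearest being 106.7 and 109.2 CPM. The log2 fold change came to -0.35 (standard error 0.18, 95% interval -0.74 to 0.05, adjusted p = 0.233 by edgeR), which takes in both a clear decrease and a level close to wild-type. In the authors' TPM values, which are corrected for gene length and scaled to a common total, Tmem173 overlapped between genotypes, at 116.01, 149.05, 114.75 and 97.06 TPM in wild-type tumors and 83.39, 119.33, 122.77 and 111.31 TPM in ΔAgo2 tumors. On the log2(TPM + 1) scale its difference was -0.12, but there the median of all genes was 0.21 rather than 0.04, so that relative to all genes Tmem173 was about as low on either scale. Summed fibroblast markers, chiefly Col3a1, were lower in the same tumors, though 2 of the 9 genes stood higher. The part of these markers in the Tmem173 difference was not tested.

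Tbk1 (ENSMUSG00000020115.3, chromosome 10, 121546455 to 121586787), the kinase shared by the STING and RNA-sensing routes, measured 31, 29.7, 31.4 and 19.5 CPM across wild-type tumors 1 to 4. In ΔAgo2 tumors 1 to 4 it stood at 31.5, 54.2, 39.6 and 48.3 CPM. ΔAgo2 tumor 1 was level with the 3 upper wild-type tumors, and wild-type tumor 4 was the lowest of all. The log2 fold change came to 0.63 (standard error 0.24, 95% interval 0.11 to 1.16, adjusted p = 0.129 by edgeR). Sensor and kinase thus had positive estimates whose unadjusted intervals left out 0, and the adaptor between them had a negative one. With the GC correction described further on, the estimates were 0.57 for Cgas and 0.23 for Tbk1 and no longer had an unadjusted p under 0.05. As a description, the TPM ratio of Tmem173 to Cgas was 80.6 to 154 in wild-type tumors and 28.8 to 65.7 in ΔAgo2 tumors. The highest ratios, 154 and 146, came from wild-type tumors 4 and 2, which had 9 and 31 Cgas counts. This ratio was not corrected for GC content.

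Trex1, the main cytosolic DNA exonuclease, could not be measured in this table. It was listed at 0 counts in all 8 libraries and at 0 TPM. All 1147 exon bases of Trex1 (ENSMUSG00000049734.9, chromosome 9, 109057933 to 109059734, minus strand) lie within exons of Atrip on the same strand in the GENCODE annotation. Of the 141 protein-coding genes with all exon bases shared in this way, 141 had 0 counts in every library, against 37.1% of the 35 genes whose exons are wholly shared with the opposite strand alone, and 18.7% of the other 21727 protein-coding genes. The 0 of Trex1 is hence no sign of low expression, and no upper limit is given for it. Atrip itself, whose product recruits the ATR kinase to damaged DNA, stood at 20.9 to 25.8 CPM in wild-type tumors and 16.4 to 21.7 CPM in ΔAgo2 tumors (log2 fold change -0.29, adjusted p = 0.341 by edgeR).

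Samhd1, the deoxynucleotide triphosphohydrolase that starves DNA synthesis of its building blocks, had the highest counts of the 9 genes. Samhd1 (ENSMUSG00000027639.16, chromosome 2, 157097533 to 157135265) measured 242.2, 203.9, 180.7 and 175.3 CPM across wild-type tumors 1 to 4 and 267, 251, 241.1 and 189.1 CPM across ΔAgo2 tumors 1 to 4. The groups overlapped through wild-type tumor 1 and ΔAgo2 tumor 4. Its log2 fold change came to 0.24 (standard error 0.19, 95% interval -0.19 to 0.67, adjusted p = 0.434 by edgeR). The sign was negative, at -0.024, under limma voom with sample weights.

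The 3 subunits of RNase H2, which work as a complex of 1 catalytic subunit and 2 accessory subunits, had estimates of unlike sign. Rnaseh2a, the catalytic subunit (ENSMUSG00000052926.16, chromosome 8, 84956610 to 84969767), measured 71.3, 96, 50.5 and 126.3 CPM across wild-type tumors and 100.3, 47.1, 55.9 and 51.9 CPM across ΔAgo2 tumors. Rnaseh2c (ENSMUSG00000024925.11, chromosome 19, 5601873 to 5607019) measured 26.4, 43.4, 30.3 and 66.8 CPM across wild-type tumors and 48.4, 15.1, 21.8 and 20 CPM across ΔAgo2 tumors. Both were high in wild-type tumors 2 and 4 and in ΔAgo2 tumor 1, and the groups overlapped. Rnaseh2b (ENSMUSG00000021932.13, chromosome 14, 62292589 to 62372992) instead measured 15.2, 6.01, 14.5 and 7.74 CPM across wild-type tumors and 22.9, 18.9, 19.5 and 18.9 CPM across ΔAgo2 tumors. It was lowest in wild-type tumors 2 and 4, the wild-type tumors with the most Rnaseh2c and the shallowest of the 8 libraries, and its ΔAgo2 tumors lay above all wild-type tumors.

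The log2 fold changes were 0.87 for Rnaseh2b (standard error 0.3, 95% interval 0.2 to 1.54), -0.43 for Rnaseh2a (standard error 0.32, 95% interval -1.14 to 0.28) and -0.66 for Rnaseh2c (standard error 0.4, 95% interval -1.53 to 0.22). The adjusted p-values by edgeR were 0.112, 0.401 and 0.302. Without ΔAgo2 tumor 1, the one with the highest C1q transcripts, Rnaseh2a and Rnaseh2c were at -0.74 (adjusted p = 0.104 by edgeR) and -1.14 (adjusted p = 0.0536 by edgeR), whereas Rnaseh2b was at 0.8. Per length, the catalytic subunit and Rnaseh2c were close to each other in each tumor, at a TPM ratio of 0.815 to 1.52. On that scale Rnaseh2b was the scarce subunit in all 8 tumors. In CPM, without the length correction, it stood above Rnaseh2c in ΔAgo2 tumor 2 (18.9 against 15.1 CPM) and below it in the others. In TPM, Rnaseh2a exceeded Rnaseh2b 6.22 to 29-fold in wild-type tumors and 4.43 to 7.79-fold in ΔAgo2 tumors. Rnaseh2c exceeded Rnaseh2b 6.34 to 31.4-fold and 2.92 to 7.7-fold. Wild-type tumors 2 and 4 held the high ratios, and wild-type tumors 1 and 3 lay near ΔAgo2 tumor 1.

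**Figure D2:**
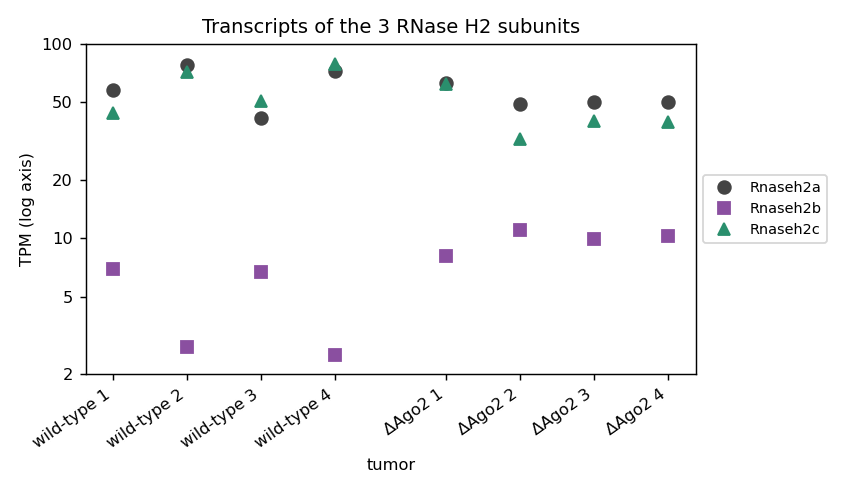
TPM of Rnaseh2a, Rnaseh2b and Rnaseh2c in each tumor on a log axis, 1 point per subunit and tumor. Rnaseh2b lies below the other subunits in all 8 tumors, at 2.5 to 6.92 TPM in wild-type and 8.05 to 11.08 TPM in ΔAgo2 tumors, and the gap is widest in wild-type tumors 2 and 4.

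Dnase2a (ENSMUSG00000003812.13, chromosome 8, 84908560 to 84922915), the lysosomal nuclease that macrophages use on engulfed DNA, measured 31.2, 44.5, 31.6 and 51.9 CPM across wild-type tumors and 74.2, 46.1, 39.8 and 43.1 CPM across ΔAgo2 tumors. In CPM, ΔAgo2 tumor 1 was the highest and the other ΔAgo2 tumors lay within the wild-type range. In TPM, wild-type tumors ran from 16.53 to 23.51, and ΔAgo2 tumors 1 to 4 stood at 30.23, 31.35, 23.31 and 27.2. There only ΔAgo2 tumor 3 lay within the wild-type range. On the log2(TPM + 1) scale the difference was 0.54, where the median of all genes was 0.21. The log2 fold change came to 0.36 (standard error 0.26, 95% interval -0.22 to 0.93, adjusted p = 0.387 by edgeR), and it was 0.11 without ΔAgo2 tumor 1. That tumor also had the highest summed macrophage markers (3041.6 CPM, chiefly C1q) and pan-leukocyte markers (1342.8 CPM, with 4 of the 8 genes highest there and Ptprc, Cd53, Coro1a and Lcp1 higher elsewhere), and their part in the Dnase2a level was not tested.

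On the length-corrected scale, the mean level over the 8 tumors was, from high to low, Tmem173 (114.2 ± 19.2 TPM), Samhd1 (69 ± 18.4), Rnaseh2a (57.8 ± 12.5), Rnaseh2c (52.4 ± 16.7), Tbk1 (27.5 ± 13.4), Dnase2a (23.6 ± 5.73), Rnaseh2b (7.27 ± 3.27) and Cgas (1.73 ± 1.07 TPM; SD, n = 8), with Trex1 listed at 0. Tmem173 exceeded Samhd1 in all 8 tumors, and Dnase2a exceeded Rnaseh2b and Rnaseh2b exceeded Cgas in all 8. The neighbours from Samhd1 to Dnase2a were less clearly ordered, each above the next in 5 or 6 of the 8 tumors. The order also differed by genotype, since wild-type means were 62.5 TPM for Rnaseh2a, 61.4 TPM for Rnaseh2c and 58.6 TPM for Samhd1, and ΔAgo2 means 53.1, 43.5 and 79.5 TPM. Among the 8 measured genes the adaptor was thus the most abundant transcript and its sensor the least abundant.

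Differences between genotypes were ordered largely by GC content. The 3 genes with the lowest GC content, Rnaseh2b (44.9%), Tbk1 (45.4%) and Cgas (45.9%), had the 3 highest log2 fold changes. Rnaseh2c (58.1%) and Rnaseh2a (54.2%) had the lowest, while Dnase2a (55.3%) stood apart with a positive value. When each library's trend on gene GC content was removed, Cgas went from 0.9 to 0.57, Tbk1 from 0.63 to 0.23, Rnaseh2b from 0.87 to 0.54, Rnaseh2c from -0.66 to -0.19 and Rnaseh2a from -0.43 to -0.23. Dnase2a went from 0.36 to 0.64, away from 0. Tmem173 was nearly the same at -0.38, and Samhd1 was at 0.11. The correction kept the sign of all 8 estimates and again called 0 of 8 by edgeR, against 3.73% of all genes, with adjusted p-values from 0.0951 to 0.746. The unadjusted p was again under 0.05 for 3 of the 8, against 21.2% of all genes, but 2 of them were other genes than before. Tmem173 (-0.38, standard error 0.15) and Dnase2a (0.64, standard error 0.19) came in, Rnaseh2b (0.54, standard error 0.23) was among both, and Cgas (standard error 0.29) and Tbk1 (standard error 0.16) dropped out.

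**Figure D3:**
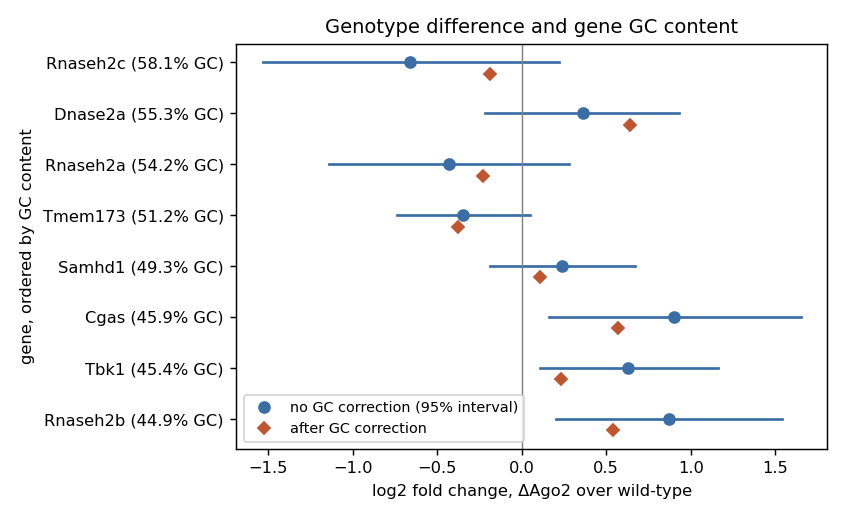
Log2 fold change of ΔAgo2 over wild-type for the 8 tested genes, ordered by GC content from bottom (44.9%) to top (58.1%). Circles with lines give the edgeR estimate and its 95% interval, diamonds the estimate after GC correction, which lies nearer to 0 for 6 genes and farther from it for Dnase2a and, by a small step, for Tmem173.

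Within genotypes, the genes were compared by their log2 CPM deviations from the genotype mean over the 8 tumors. The 28 pairs share their libraries, so the values are descriptions. Rnaseh2a, Rnaseh2c and Dnase2a varied together, with Pearson r from 0.91 to 0.92 before and from 0.76 to 0.81 after the GC correction. Tbk1 varied against Rnaseh2c (-0.93 before, -0.7 after) and Rnaseh2a (-0.86 before, -0.36 after). Rnaseh2b and Tbk1 showed little relation before (0.19) and a strong negative one after (-0.95), so this pair turned on the correction. Cgas and Samhd1 were alike at 0.56 before and 0.67 after.

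**Figure D4:**
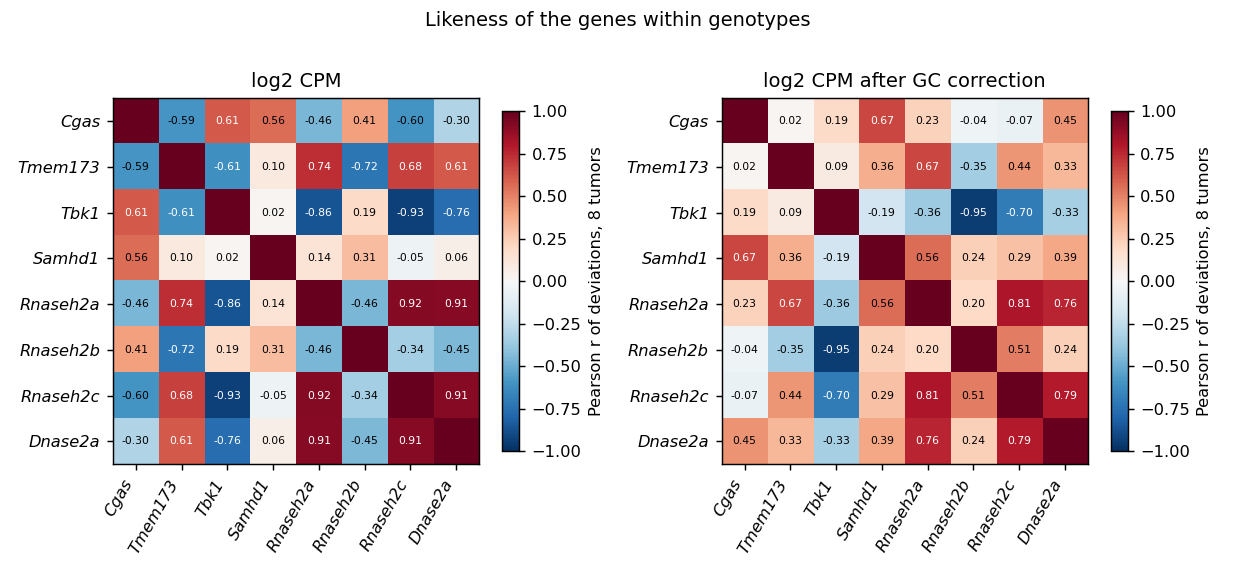
Pearson r of within-genotype log2 CPM deviations for each pair of the 8 tested genes over 8 tumors, without (left) and with (right) removal of each library's GC trend, from -1 in blue to 1 in red. Rnaseh2a, Rnaseh2c and Dnase2a stay at 0.76 or above with each other in both panels, while the relation of Tbk1 and Rnaseh2b goes from 0.19 to -0.95.

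Among all tested genes with a mean of at least 5 CPM, the most similar within-genotype profiles were those of Ccnd1 (r = 0.941) and 5830444B04Rik (0.925) for Cgas, and of Prodh (0.987) and Wars (0.98) for Tmem173. For Tbk1 they were Ulbp1 (0.999) and Polk (0.998), and for Samhd1 Themis2 (0.973) and Lpcat2 (0.964). Rnaseh2a was closest to Cdk2ap2 (0.996) and Alad (0.995), Rnaseh2c to Prr7 (0.996) and Atp5g2 (0.994), Rnaseh2b to Pex2 (0.996) and 1810022K09Rik (0.995), and Dnase2a to Fam173b (0.992) and Ndufb2 (0.988). Only the 2 closest genes of each member were listed, and none of these was another member. Cgas, at no more than 4.66 CPM in any tumor, was under the 5 CPM minimum and could not be listed. With the GC correction r was 0.646 for Samhd1 with Themis2, 0.667 for Tmem173 with Wars and 0.735 for Cgas with 5830444B04Rik. It stayed at 0.99 for Tmem173 with Prodh and for Tbk1 with Polk. The uncorrected values are the highest of many correlations over 8 tumors and carry no test.

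The rest of the pathway was examined through 4 lists of 66 genes, of which 60 were tested. edgeR called 1 of the 60, higher in ΔAgo2 tumors, against 3.49% of all genes, and 14 had an unadjusted p under 0.05, against 26.7% of all genes. Partners of the STING route, from IRF3 to the proteins that traffic STING, gave 12 of 25 higher, 0 called by edgeR, 4 with an unadjusted p under 0.05 and a median log2 fold change of -0.03. That list mixes genes that aid the route with genes that restrain it, so its count and median give no direction for the route. The lowest p-values there belonged to Tbkbp1, an adaptor that binds TBK1, and Stim1, a calcium sensor of the endoplasmic reticulum that holds STING there. Tbkbp1 ranged from 120.1 to 338.1 CPM in wild-type and from 89.1 to 92.3 CPM in ΔAgo2 tumors (log2 fold change -1.33, standard error 0.33, adjusted p = 0.0523 by edgeR). Stim1 ranged from 28.4 to 42.8 CPM and from 16.8 to 21.6 CPM (-0.83, standard error 0.21, adjusted p = 0.0537 by edgeR). For both, each ΔAgo2 tumor was below each wild-type tumor. These estimates depended on the processing. Tbkbp1 was at -0.52 with the GC correction and -0.78 with limma voom, and passed the threshold in 9 of 24 alternatives, while Stim1 was at -0.6 with the GC correction and -0.52 on the log2(TPM + 1) scale and passed in 7 of 24.

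Other nucleases and RNA-editing genes gave 10 of 16 higher, with 0 called by edgeR, 3 at an unadjusted p under 0.05 and a median of 0.16. Over all genes 52.5% stood higher, 3.49% were called and 26.7% had an unadjusted p under 0.05. Dnase1l1, a relative of DNase I, ranged from 11.9 to 19.1 CPM in wild-type and from 22.7 to 30.7 CPM in ΔAgo2 tumors without overlap (log2 fold change 0.77, adjusted p = 0.0754 by edgeR). Pld3, a lysosomal exonuclease for single-stranded DNA, ranged from 97.5 to 208.1 CPM and from 59.3 to 99.5 CPM (-1.02, adjusted p = 0.0759 by edgeR), with overlap through ΔAgo2 tumor 1. Genes of deoxynucleotide supply, the substrate of SAMHD1, gave 6 of 11 higher, 0 called by edgeR, 1 at an unadjusted p under 0.05 and a median of 0.17, beside the same shares over all genes. Dck, a nucleoside salvage kinase, was at 0.57 (adjusted p = 0.195 by edgeR).

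The transcripts that this route can induce were described last, and their list was not tested against the others. Of 8 tested IRF3 and interferon outputs 7 stood higher in ΔAgo2 tumors, as did 52.5% of all genes. edgeR called 1, against 3.49% of all genes, and 6 had an unadjusted p under 0.05, against 26.7% of all genes. Their median log2 fold change was 1.31. Rsad2, the antiviral protein viperin, rose from 26.8, 9.34, 13 and 8.46 CPM in wild-type tumors 1 to 4 to 51.7, 76.4, 61.5 and 45.6 CPM in ΔAgo2 tumors 1 to 4. No wild-type tumor reached a ΔAgo2 tumor, and the log2 fold change came to 2.01 (standard error 0.36, adjusted p = 0.0177 by edgeR). That call was lost without wild-type tumor 2, ΔAgo2 tumor 2 or ΔAgo2 tumor 3 (adjusted p = 0.0689, 0.0569 and 0.0515 by edgeR). Rsad2, Cxcl10, Ifit1, Ifit2 and Ifit3 belong to an interferon signature that the study chose on these tumors, so neither their direction nor their size is independent evidence. Interferon beta itself was barely seen, with 3 counts of Ifnb1 in each of ΔAgo2 tumors 2 and 4 and 0 in the other libraries, where 0 counts allowed up to 0.0562 to 0.43 CPM.

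**Figure D5:**
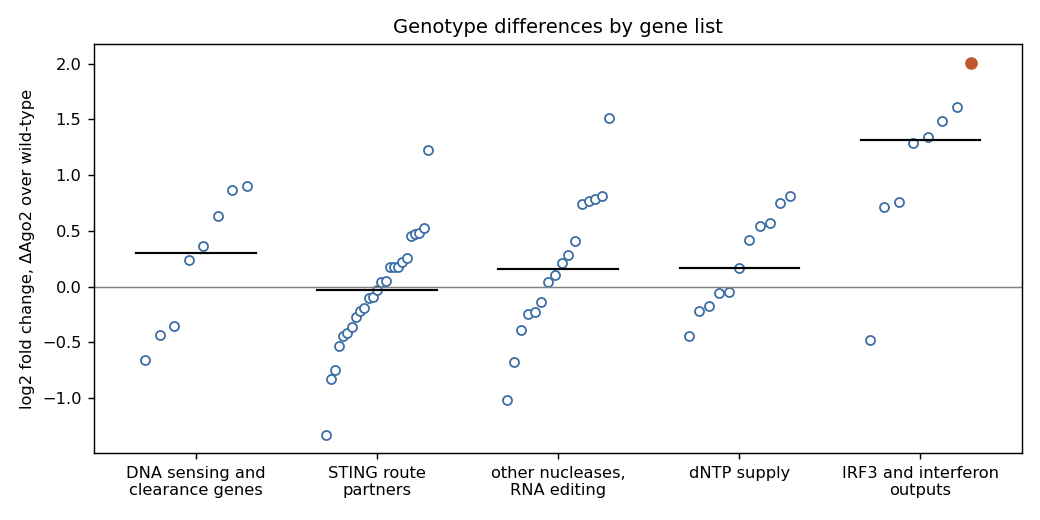
Log2 fold change of each tested gene in the DNA sensing and clearance set and in the 4 pathway lists, with lines at the medians (0.3, -0.03, 0.16, 0.17 and 1.31 from left to right). The filled point is Rsad2, the 1 gene past the adjusted threshold, and open points are genes that did not pass it.

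Several clearance genes share exon bases with a neighbour, which bears on how their counts can be read. Rnaseh2c shares 24.8% of its exon bases with Kat5 and Dnase2a 30% with Mast1, both on the opposite strand. Mast1 had at most 41 counts in any library. Kat5 was at 61.2 to 79.8 CPM in wild-type and 62.3 to 75.3 CPM in ΔAgo2 tumors. Rnaseh2a shares 9.7% of its exon bases with Gm49661 on its own strand and 5% with Prdx2 on the other, Cgas 4.9% with Gm8093 and Rnaseh2b 1.1% with Dleu7. The libraries were stranded, but the strand setting of the count was not given in the sources used here. Among protein-coding genes with exons wholly shared with the opposite strand alone, 37.1% of 35 had no counts in any library. Among those wholly shared on the same strand, all 141 had none. Most genes shared with the opposite strand alone thus kept counts in some library. The part of Kat5 and Mast1 reads in the counts of Rnaseh2c and Dnase2a was not tested.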

How the data were processed

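RNA-seq of 8 LLC tumors, 4 wild-type and 4 Ago2 knock-out, was used, grouped by the sample titles. All labels give batch 1. Per the labels, libraries were made with a stranded mRNA kit and sequenced paired-end at 100 bp with a target of 50 M reads, and the submitters' processing notes name mm10 and STAR. The authors deposited raw counts per gene, with no normalization. The study's passage on cultured cells names featureCounts after alignment to mm10, which was taken to hold for the tumors too. Annotation release, strand setting and treatment of shared reads were not given in the sources used here. The authors also deposited TPM values, which are counts divided by gene length and scaled to a common library total.

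Counts were analysed with edgeR 4.0.16 in R 4.3.3 (filterByExpr, TMM, quasi-likelihood test, genotype alone, Benjamini-Hochberg at 0.05 over 16061 genes). The standard error was the log2 fold change divided by the root of F. CPM used TMM-scaled totals, and log2 CPM a prior count of 2. The procedure was tested on simulated data. Totals ran from 7903288 to 268564145 counts, so low genes are least precise in the shallow libraries. The Poisson intervals of Cgas and the upper limits for genes without counts cover counting error only. Reads carry no molecular identifiers. Intervals of log2 fold changes were built from the standard error of the edgeR fit, so they include the spread between tumors. P-values measure the spread between tumors labelled biological replicates. Identifiers were matched to GENCODE M21 on GRCm38 (99.29% with version), which gave coordinates, exon overlap, length and GC content. Each library's trends on GC content and length were fitted on genes averaging 50 counts or more.

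The 9 genes, the 4 pathway lists and the 13 marker lists were chosen with earlier results of these data known. From each list, genes past the threshold were named, otherwise the 2 with the lowest p, and for each of the 9 genes the 2 with the most similar profile. For deoxynucleotide supply, 1 gene under this rule is not reported here. Ifnb1, Krt8, Sftpc and the overlapping neighbours were named after their values were seen. Alternatives were 3 other scalings, DESeq2 1.42.0, limma 3.58.1 (voom, or log2 TPM with pseudocounts of 1 and 0.1 and genes at 0.5 TPM or more in 4 libraries, or unfiltered), other count filters, the replicate number as a block, each library left out, thinning to 7903288 counts, and GC and length corrections. Leaving out wild-type tumor 4 together with ΔAgo2 tumor 1, and the GC-corrected likeness, were added after seeing the data. Cultured cells and single cells were not analysed here.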

Additional observations from a re-analysis of the deposited data

Results flagged for a closer look

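Dixon's gap test, applied to the 4 tumors of each genotype for the 8 tested genes, marked 3 of 16 groups, where chance would mark about 0.8. Tbk1 in wild-type tumor 4 stood at 19.5 CPM, below 29.7 to 31.4 CPM in the other wild-type tumors. That library was the shallowest. Rnaseh2a in ΔAgo2 tumor 1 stood at 100.3 CPM, above 47.1 to 55.9 CPM in the other ΔAgo2 tumors. Rnaseh2b in the same tumor stood at 22.9 CPM, above 18.9 to 19.5 CPM in the others. ΔAgo2 tumor 1 also had the highest summed macrophage markers (3041.6 CPM, with 1256 to 1528.7 CPM for ΔAgo2 tumors 2 to 4), of which C1qa, C1qb and C1qc made up 2231.9 CPM, and the part of these markers in both values was not tested.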

How the results depend on the processing

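The count of called DNA sensing and clearance genes stayed at 0 in 23 of 24 alternatives and was 1 (Tbk1) with limma voom and sample weights. All 8 estimates kept their sign in every alternative that gave a value, except Samhd1 at -0.024 under limma voom. Cgas had no value with at least 10 counts in every library. The log2 fold change ran from 0.5 to 1.22 for Cgas, 0.23 to 0.85 for Tbk1, 0.51 to 1.19 for Rnaseh2b, -0.41 to -0.12 for Tmem173, -0.74 to -0.18 for Rnaseh2a, -1.14 to -0.19 for Rnaseh2c and 0.11 to 0.64 for Dnase2a. Without wild-type tumor 4 and ΔAgo2 tumor 1 together, an alternative chosen after seeing the data, 0 of the 9 genes, 1 pathway gene and 832 genes were called.

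Counts over all genes moved more. Against 560, there were 2265 with DESeq2, 4476 with limma voom, 983 with no count filter, 1209 with the length correction, and 153, 107 and 77 with limma on log2(TPM + 1), log2(TPM + 0.1) and log2(TPM + 1) with no filter. Of these calls 39.1% were higher in ΔAgo2 tumors in the main result, 49.8% with DESeq2, 53.5% with limma voom and 52.4% with no filter. Leaving out 1 library gave 88 to 1793 genes, the lowest without ΔAgo2 tumor 4 and the highest without ΔAgo2 tumor 1. Pathway genes called, 1 in the main result, were 3 with upper-quartile scaling, 11 with DESeq2, 13 with limma voom, 5 with no count filter, 3 with at least 10 counts in every library, 2 after thinning, 5 with the length correction, 0 with log2(TPM + 0.1) and with no TPM filter, and 0 to 5 with 1 library left out. The cause of these differences was not tested.

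Replicate numbers are shared by label alone. Deviations of same-numbered tumors correlated at -0.236, 0.103, -0.045 and -0.29. Each is a single correlation of deviations from means of 4 tumors, so these values cannot decide whether the numbers pair tumors. With the replicate block, 70 genes, 0 pathway genes (Rsad2 adjusted p = 0.0542 by edgeR) and 0 of the 9 genes were called, with 1 of them (Rnaseh2b) at an unadjusted p under 0.05. With the block and the GC correction there were 314, 4 and 0.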
